A study of Homo sapiens with 12 samples.

Results

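The human colorectal carcinoma line HCT116, an established cell line, was compared after 16 h with 20 nM dolastatin 15 and after 16 h with the solvent DMSO alone, across all genes. The 4 libraries of this comparison, 2 per group, were chosen by the dose and time in the sample titles from 12 in the series. The other 8 came from cells given 100 nM at 16 h and from cells given 20 nM, 100 nM or solvent at 24 h, and they entered the fit to estimate the spread between duplicates. All cells, controls included, were plated in medium with reduced serum, left to attach overnight and kept at the same DMSO concentration. Poly(A) RNA was sequenced from total RNA. The labels call the samples duplicates without naming separate cultures, so p-values reflect the spread of these samples alone, and that spread may be technical. A single cell line was used, and in bulk RNA fewer cells of a kind, such as cells of 1 cell cycle phase, and less RNA per cell cannot be told apart.

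Dolastatin 15 is a peptide first found in a sea hare and made by marine cyanobacteria. It binds tubulin and blocks the assembly of microtubules, the polymers of alpha- and beta-tubulin that build the mitotic spindle and carry transport between mitoses. Cells without a working spindle keep the spindle checkpoint active, which holds the anaphase-promoting complex in check, keeps cyclin B stable and delays the exit from mitosis. Tubulin mRNA has its own feedback: when free tubulin dimers are plentiful, ribosomes translating the first codons of tubulin mRNA are recognised and that mRNA is degraded.

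Libraries 1 and 2 were the 20 nM duplicates and libraries 5 and 6 the solvent duplicates. Values are FPKM, fragments scaled to transcript length and library size, which allow levels of different genes to be set side by side. Their sum was 948393 to 959812 per library, 20484 to 21519 genes were above 0, and mitochondrially encoded genes held 21.6% to 22.2% of the sum. Pearson correlations across genes on the log2 scale were 0.993 within the 20 nM pair, 0.992 within the solvent pair and 0.986 to 0.988 between the groups. Read depth is unknown. The epithelial markers EPCAM (281 and 282 FPKM with 20 nM, 271 and 269 in solvent), KRT8 (423 and 426, 441 and 419) and the intestinal factor CDX2 (18.5 and 18.2, 11.9 and 13.6) were present, while the enterocyte markers VIL1 (0.11 and 0.06, 0.16 and 0.1) and LGALS4 (0.26 and 0.14, 0.12 and 0.09) were near 0. Of 16 fibroblast, immune and endothelial markers, COL1A1 (2.55 and 2.31, 3.83 and 3.38) and CD68 (9.25 and 10.1, 7.55 and 7.04) passed the filter on low values.

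Changes on log2(FPKM + 1), which understate the change of low genes, were tested with limma in the 13458 genes with at least 1 FPKM in at least 2 of the 12 libraries, and calling a gene needed an adjusted p under 0.05 (Benjamini-Hochberg). Of these, 2388 were called (17.7%), 912 higher (6.78%) and 1476 lower (11%). With median-of-ratios scaling the split was 1240 against 1223, and this scaling moved the median change of all genes from -0.02 to 0.00. Most changes were small: the median called increase was 0.29 and the median called decrease -0.37 (log2), 88 genes rose and 259 fell by at least 0.585, and 31 rose and 34 fell by at least 1. Leaving out library 1, 2, 5 or 6 in turn left between 1036 and 1240 calls. A gene is said to have held when both treated libraries lay beyond both solvent libraries, none was at 0, it was called in the same direction in each of those 4 fits, and 2 other scalings kept its direction. There were 730 such genes (5.42%), 213 higher (1.58%) and 517 lower (3.84%), and the counts of each gene list below are to be read against these shares and against the median of all genes, -0.02.

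**Figure D1:**
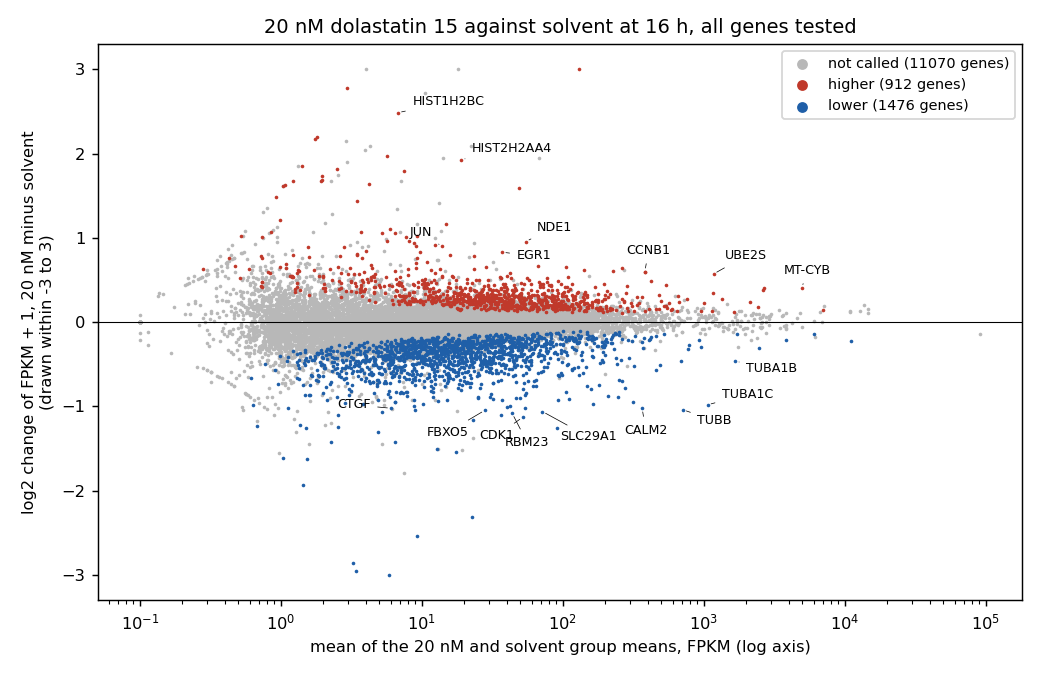
Each point is 1 of the 13458 genes tested, with its mean level in FPKM on a log axis and its log2 change of FPKM + 1 between 20 nM and solvent at 16 h, red where called higher, blue where called lower and grey where not called. The 912 increases and 1476 decreases mostly lie within 1 log2 unit of 0, and the tubulin genes TUBB, TUBA1C and TUBA1B are among the decreases at the highest levels.

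Most tubulin mRNAs were called lower, led by TUBB and TUBA1C. The coding starts are shown because the feedback on tubulin mRNA reads what the first codons encode, as the nascent chain leaves the ribosome. They are the first 24 coding bases of the principal GENCODE 29 transcripts (GRCh38), with the first 12, the start codon and the 3 codons after it, in capitals.
TUBB: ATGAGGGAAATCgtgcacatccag
TUBB4B: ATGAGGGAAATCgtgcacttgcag
TUBB6: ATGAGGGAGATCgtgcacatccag
TUBB2A: ATGCGCGAGATCgtgcacatccag
TUBA1C: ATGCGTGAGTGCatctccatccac
TUBA1B: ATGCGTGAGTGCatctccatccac
TUBA8: ATGCGGGAATGCatatcagtccac
TUBG1: ATGCCGAGGGAAatcatcacccta
The capitals of TUBB and TUBB4B were the same 12 bases, those of TUBB6 were shared with TUBB3, and TUBA1A, TUBA1B and TUBA1C shared all 24. The capitals of all beta-tubulins shown encode the same amino acids, and so do those of the alpha-tubulins shown. TUBG1, a gamma-tubulin of the nucleating ring, starts differently.

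TUBB, a beta-tubulin (chromosome 6, 30720201 to 30725426), stood at 469 and 461 FPKM with 20 nM and at 972 and 943 in solvent (log2 change -1.04, SE 0.04, adjusted p = 5.57e-06). The alpha-tubulin gene TUBA1C (chromosome 12, 49188736 to 49274603, overlapping TUBA1A) stood at 709 and 721 against 1401 and 1425 FPKM (log2 change -0.98, SE 0.04, adjusted p = 5.57e-06). TUBA1B, the most abundant tubulin mRNA of these cells per length, stood at 1413 and 1403 against 1960.0 and 1930.0 FPKM (log2 change -0.47, SE 0.03, adjusted p = 6.65e-05). Each was lower in both treated libraries than in both solvent libraries, as were 36.1% of all genes tested, with 27.1% higher in both. These 3 genes were among the 5 largest drops in FPKM of genes that held. TUBB4B, the other abundant beta-tubulin, stood at 676 and 689 against 868 and 834 FPKM and also fell (log2 change -0.32, SE 0.05, adjusted p = 0.00399).

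Of the alpha-tubulins 0 of 5 rose (0 at an unadjusted p under 0.05) and 4 fell (2 held), with a median log2 change of -0.30, and of the beta-tubulins 1 of 7 rose and 4 fell (0 and 2 held), with a median of -0.20. TUBA1A (-0.26), TUBA4A (-0.30), TUBB3 (-0.29) and TUBB4A (-0.20) were called lower, but each call ended in at least 1 fit without a library (highest adjusted p = 0.0706, 0.137, 0.0694 and 0.162 in turn). TUBB2A was at 113 and 112 FPKM with 20 nM and 109 and 103 in solvent and did not pass (log2 change 0.08, adjusted p = 0.255). TUBA8, near the filter at 1.02 and 1.06 against 0.73 and 1.06 FPKM, did not pass either (adjusted p = 0.695). TUBB6, at 188 and 185 against 171 and 167 FPKM, was called higher (log2 change 0.14), and its call ended without each of the 4 libraries (adjusted p = 0.0665 to 0.129). TUBB3 and TUBB6, which share 12 bases of coding start, had fitted changes of opposite sign, and neither call held. Whether the coding start bears on the change of a gene was not tested. Of the gamma-tubulins, TUBG1 was called lower (-0.15, adjusted p = 0.0356, and up to 0.198 without a library) and TUBG2 did not pass (-0.12, adjusted p = 0.344). Reads of near-identical tubulin copies can be divided uncertainly among them, which touches all these values.

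**Figure D2:**
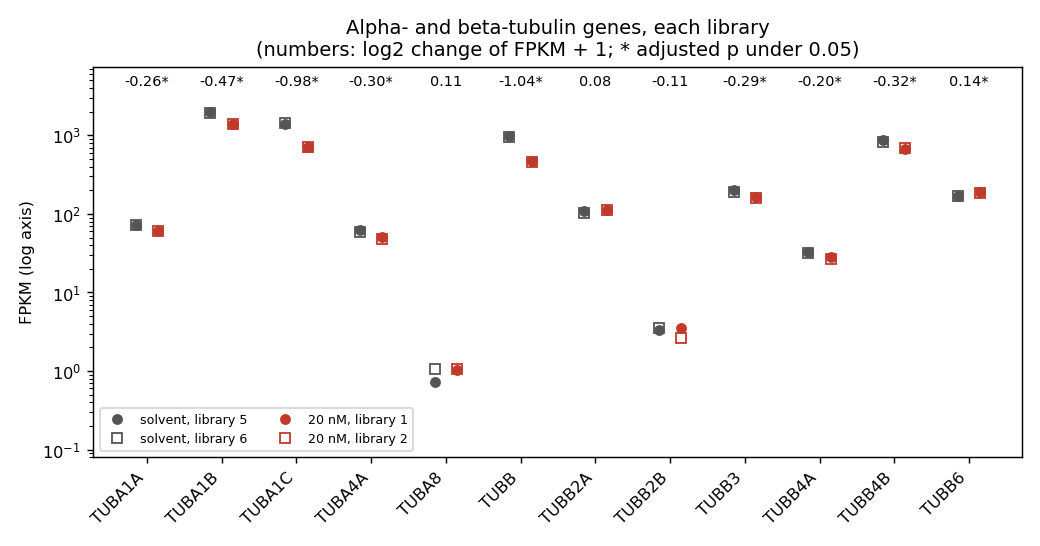
FPKM of the 12 tested alpha- and beta-tubulin genes on a log axis, with solvent libraries 5 and 6 in dark grey and 20 nM libraries 1 and 2 in red, and the log2 change above each gene, starred where called. Duplicates nearly coincide for most genes, and TUBB, TUBA1C and TUBA1B show the largest gaps between the groups.

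Among the subunits of the chaperonin TRiC, which folds tubulin, 0 of 8 rose (1 unadjusted) and 0 fell (0 unadjusted), with a median of 0.02. Among tubulin cofactors, prefoldins and factors of tubulin mRNA decay, 3 of 14 rose and 1 fell (1 and 0 held), and the prefoldin PFDN2 stood at 387 and 410.3 against 321 and 328 FPKM (log2 change 0.30, adjusted p = 0.0056). Among microtubule-associated proteins 1 of 23 rose and 4 fell (0 and 1 held), the one that held being the microtubule polymerase CKAP5 (62.9 and 62.4 against 84.7 and 85.8 FPKM, log2 change -0.44, adjusted p = 0.000528). Of the gamma-tubulin ring genes 1 of 11 rose and 2 fell (0 and 1 held), with TUBGCP6 at -0.69. Among motors of transport, the kinesin KIF13A (-0.53) fell, as 1 of 2 decreases in 16 genes. Of 21 dynein and dynactin genes 5 rose and 1 fell (1 and 0 held), and the increase that held was NDE1, a dynein regulator of the centrosome and kinetochore (chromosome 16, 15643267 to 15726353): 72.6 and 72.1 FPKM with 20 nM against 36.9 and 36.8 in solvent (log2 change 0.96, SE 0.05, adjusted p = 1.95e-05).

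The cyclin B and CDK1 switch, which drives entry into mitosis, split in 2 directions: 7 of 17 rose and 5 fell (6 and 4 held), and the median was 0.08. CCNB1, cyclin B1, stood at 450.5 and 468 FPKM with 20 nM and 314 and 292 in solvent (log2 change 0.60, SE 0.04, adjusted p = 5.01e-05). BORA, an activator of Aurora A and PLK1, stood at 35.1 and 34.8 against 22.6 and 21.3 FPKM (log2 change 0.65, adjusted p = 0.000117). CKS2, a small CDK-binding subunit, stood at 491 and 489 against 355 and 341 FPKM (log2 change 0.49, adjusted p = 0.00615). Against these, CDK1, the kinase that cyclin B binds, stood at 31.6 and 32.8 FPKM with 20 nM and 73.2 and 70.2 in solvent (log2 change -1.13, SE 0.05, adjusted p = 1.02e-05). CKS1B, the close relative of CKS2, stood at 188 and 197 against 310.3 and 312 FPKM (log2 change -0.69, adjusted p = 0.000104), and PKMYT1, which phosphorylates and inhibits CDK1, at 59.03 and 58.96 against 81.3 and 81.6 (log2 change -0.46, adjusted p = 0.00307). A cyclin and its kinase, and a pair of related CDK subunits, thus had changes of opposite sign.

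Exit from mitosis showed the same divide. Of 19 genes of the anaphase-promoting complex, its activators and its inhibitors, 4 rose and 5 fell (2 and 4 held). CDC20, the mitotic activator, stood at 459 and 468 against 308 and 304 FPKM (log2 change 0.60, SE 0.06, adjusted p = 0.000519), and UBE2S, the enzyme that extends the ubiquitin chains, at 1439 and 1366 against 949.9 and 937 FPKM (log2 change 0.57, adjusted p = 7.14e-05). FZR1, the activator of late mitosis and G1, stood at 20.6 and 21.7 against 39.9 and 40.1 FPKM (log2 change -0.89, SE 0.06, adjusted p = 3.64e-05). UBE2C, the enzyme that starts the chains, stood at 171 and 173 against 316 and 321 FPKM (log2 change -0.89, adjusted p = 9.99e-06). FBXO5, an inhibitor of the complex in interphase, stood at 17.97 and 17.9 against 38.5 and 37.6 FPKM (log2 change -1.05, SE 0.05, adjusted p = 1.36e-05). The activators CDC20 and FZR1 and the ubiquitin-conjugating enzymes UBE2S and UBE2C therefore moved oppositely within each pair.

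In the spindle checkpoint list 2 of 11 rose and 3 fell (1 and 2 held), with a median of 0.01. BUB1B, which encodes the checkpoint protein BUBR1, was higher (90 and 89.02 against 68.3 and 68.4 FPKM, log2 change 0.38, adjusted p = 0.00486). BUB3, its partner, was lower (189 and 211 against 278 and 286 FPKM, log2 change -0.49, adjusted p = 0.00131), as was the checkpoint kinase TTK (-0.41). Of the Aurora kinases and the chromosomal passenger complex with its helpers, 5 of 9 rose and 3 fell (4 and 3 held). AURKA, the spindle pole kinase, stood at 173 and 173 against 113 and 111 FPKM (log2 change 0.62, SE 0.04, adjusted p = 3.34e-05), with BIRC5, the survivin subunit, at 0.49 and the centromere protector SGO2 at 0.44. AURKB, the catalytic subunit of the passenger complex, stood at 54.2 and 60.5 against 86.9 and 85.9 FPKM (log2 change -0.58, SE 0.05, adjusted p = 0.000194), and its scaffold INCENP (-0.56) and the histone H3 kinase HASPIN (-0.28) fell too. Subunits of 1 complex, BIRC5 on one side and AURKB and INCENP on the other, had opposite signs.

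**Figure D3:**
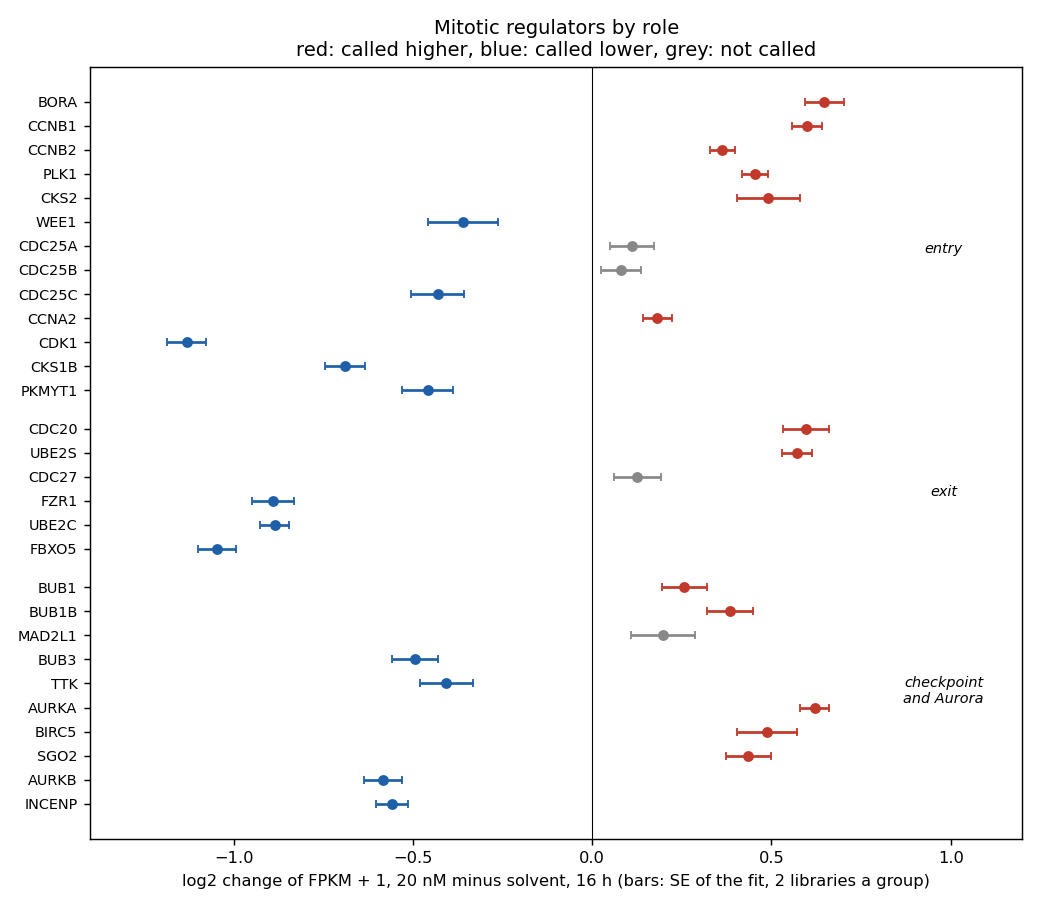
Log2 change of FPKM + 1 between 20 nM and solvent at 16 h, with bars for the SE of the fit over 2 libraries per group, for genes of entry into mitosis, of exit and of the checkpoint and Aurora kinases, red where called higher, blue where called lower and grey where not called. Each role holds genes on both sides of 0, from BORA, CCNB1, AURKA and CDC20 at the right to CDK1 and FBXO5 at the left.

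Among mitotic kinesins 4 of 14 rose and 3 fell (1 and 2 held): KIF20A, needed for cytokinesis, was higher (82.6 and 80.3 against 51.5 and 50.6 FPKM, log2 change 0.66, adjusted p = 4.37e-05), while the microtubule depolymerase KIF2A (-0.41) and the spindle motor KIF11 (-0.30) were lower. Of the kinetochore genes 2 of 32 rose and 8 fell (1 and 5 held), with the centromeric histone CENPA (0.32) higher and the centromere proteins CENPC (4.23 and 3.99 against 9.01 and 8.67 FPKM, log2 change -0.95, adjusted p = 4.7e-05) and CENPI (-0.51) and the NDC80 complex subunit SPC25 (-0.45) lower. TOP2A, the topoisomerase that untangles sister chromatids, stood at 25.9 and 27.1 against 54.7 and 53.95 FPKM (log2 change -1.01, SE 0.06, adjusted p = 2.21e-05), and the condensin subunit NCAPH fell (-0.76). Of 14 cohesin and separase genes 1 rose and 3 fell (1 and 2 held), the separase inhibitor PTTG1 (0.43) being higher and the cohesin subunits STAG2 (-0.56) and SMC3 (-0.30) lower. In cytokinesis and spindle genes, CEP55, which recruits the abscission machinery, was higher (0.44) and NUSAP1, a spindle microtubule binder, lower (78.4 and 75.5 against 147 and 144 FPKM, log2 change -0.91). Of the centrosome and spindle pole list 1 of 18 rose and 3 fell (0 and 2 held), SASS6, which builds the centriole cartwheel (-0.55), and HAUS2, of the augmin complex (-0.50), being the decreases that held.

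Promoters of mitotic genes often carry the CHR element, searched here as TTTGAA, and CCAAT boxes, searched as CCAAT, on both strands. RefSeq windows from 250 bases before to 50 after the start (GRCh38.p14) were found for 84 of the 101 tested genes of 7 mitotic lists (83.2%). CHR letters were in 52.8% of their 106 windows against 15.2% of all 35116 windows, and CCAAT letters in 64.2% against 34.6%. Of the 44 windows of DNA replication genes 0 held the CHR letters and 20.5% held E2F letters, searched as TTTCCCGC, against 1.63% of all windows. The stretches before the start are shown for 1 gene that rose, CDC20, and for 2 that fell, CDK1 and TOP2A, to place them side by side, in transcript orientation with CHR and CCAAT letters of either strand in capitals.
CDC20: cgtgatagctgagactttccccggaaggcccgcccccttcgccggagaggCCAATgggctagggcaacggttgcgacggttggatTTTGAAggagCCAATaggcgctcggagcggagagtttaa
CDK1: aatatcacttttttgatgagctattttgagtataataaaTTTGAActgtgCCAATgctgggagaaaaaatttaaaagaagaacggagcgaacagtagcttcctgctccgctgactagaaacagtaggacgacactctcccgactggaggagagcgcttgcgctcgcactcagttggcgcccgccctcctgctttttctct
TOP2A: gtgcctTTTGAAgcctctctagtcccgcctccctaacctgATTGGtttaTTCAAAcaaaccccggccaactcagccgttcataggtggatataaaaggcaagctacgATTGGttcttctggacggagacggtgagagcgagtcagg
They are chr1:43358831-43358954 on the plus strand, chr10:60778131-60778330 on the plus strand and chr17:40417951-40418096 on the minus strand. CDK1 has 2 windows, of which the first listed is shown. CHR letters lay at -65 to -60 from the RefSeq start of CDC20, at -161 to -156 in CDK1, and at -194 to -189 and -151 to -146 in TOP2A, and no CHR match overlapped a CCAAT match. The gene that rose and both that fell thus hold the same letters, and a match is no evidence of binding. Shares of windows, here and for the lists below, were not split by whether a gene changed, so they do not bear on the drug.

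The DNA replication genes that were called were lower: 0 of 41 rose (0 unadjusted) and 21 fell (13 held), with a median of -0.17. POLD3, a subunit of DNA polymerase delta, stood at 10.1 and 10.5 FPKM with 20 nM and 15.6 and 15.3 in solvent (log2 change -0.54, adjusted p = 0.00119). CDC6, which loads the replicative helicase, stood at 84.7 and 90.7 against 130.5 and 120.3 FPKM (log2 change -0.51, adjusted p = 0.00122), and GINS1, part of that helicase, at 15.4 and 14.1 against 21.6 and 20.9 (log2 change -0.50). Of the regulators of the G1/S step 0 of 22 rose (1 unadjusted) and 8 fell (3 held): the pocket protein RBL1 (3.75 and 3.89 against 7.26 and 8.18 FPKM, log2 change -0.85, adjusted p = 0.000185), the kinase CDK2 (-0.45) and the late E2F repressor E2F8 (-0.45) held. Among homologous recombination and Fanconi genes 0 of 22 rose (0 unadjusted) and 9 fell (5 held), with a median of -0.29. BARD1, the partner of BRCA1, stood at 4.3 and 3.68 against 7.36 and 7.04 FPKM (log2 change -0.72, adjusted p = 0.00103), and the helicases BLM (-0.58) and BRIP1 (-0.58) fell with it. The thymidylate synthase TYMS (-0.23) was the decrease that held among 9 genes of deoxynucleotide synthesis, 3 of which fell. Of the chromatin maintenance genes 0 of 14 rose (2 unadjusted) and 5 fell (4 held), with the DNA methylation helicase HELLS (-0.70) and the histone chaperones ASF1B (-0.52) and CHAF1B (-0.40) lower.

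Histone genes led the increases among protein-coding genes that held. Of 63 clustered histone genes 23 passed the filter on low values, 11 of 23 rose and 1 fell (8 and 0 held), and their median was 0.59. HIST1H2BC stood at 11.4 and 13 FPKM with 20 nM and 1.62 and 1.11 in solvent (log2 change 2.48, SE 0.14, adjusted p = 1.95e-05). HIST1H2AC stood at 9.5 and 9.66 against 1.63 and 1.77 FPKM (log2 change 1.97, adjusted p = 5.84e-05), and HIST2H2AA4 at 33.7 and 27.9 against 7.13 and 7.52 (log2 change 1.93, adjusted p = 1.67e-05). HIST1H2BK, the most abundant of these H2A and H2B genes per length, stood at 69.99 and 76.9 against 24.6 and 22.7 FPKM (log2 change 1.59, adjusted p = 0.000791). HIST1H2BD (1.06), HIST1H1C (1.01) and HIST3H2A (0.91) rose as well. Poly(A) selection captures mRNA of these genes only in the part that carries a poly(A) tail, the filter keeps genes through the group where they are high, and copies are near-identical, so the share of each is uncertain. Among replacement histones, most of whose mRNA carries a poly(A) tail, 1 of 9 rose and 4 fell (0 and 4 held), with H3F3A at 199.8 and 206 against 349.8 and 352 FPKM (log2 change -0.79, adjusted p = 1.76e-05), the DNA damage variant H2AFX at 110.0 and 111 against 187 and 186 (log2 change -0.75) and the linker histone H1F0 at -0.53. CCAAT letters were in 85.7% of 21 promoter windows of the tested clustered histone genes, against 34.6% of all windows.

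In the AP-1 family of transcription factors 7 of 12 rose and 1 fell (4 and 1 held), and the median was 0.44. FOSB stood at 8.53 and 6.33 FPKM with 20 nM and 2.94 and 3.13 in solvent (log2 change 1.05, SE 0.14, adjusted p = 0.00145). JUN stood at 17.8 and 19.1 against 9.18 and 9.64 FPKM (log2 change 0.90, SE 0.06, adjusted p = 3.29e-05), and FOSL1 at 325 and 311 against 203 and 204 (log2 change 0.64, adjusted p = 6.31e-05). JUND, another partner of the FOS proteins, stood at 77.99 and 68.9 against 116 and 113 FPKM and fell (log2 change -0.64, adjusted p = 0.00109). Among other immediate early genes, which respond to growth signals without new protein synthesis, 3 of 16 rose and 4 fell (1 and 3 held). EGR1, a zinc finger factor, stood at 49.4 and 46.3 against 28.6 and 24.5 FPKM (log2 change 0.83, adjusted p = 0.000286), and IER5 (-0.71), KLF6 (-0.48) and BTG2 (-0.43) fell. Among outputs of the ERK pathway 0 of 14 rose (0 unadjusted) and 6 fell (2 held), with the ERK phosphatase DUSP6 at 20.8 and 21.2 against 29.1 and 31.6 FPKM (log2 change -0.51, adjusted p = 0.00329).

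Among genes of actin and of the serum response factor 7 of 25 rose and 1 fell (5 and 1 held), with a median of 0.05. Those that rose included TAGLN, an actin-binding protein (15.2 and 12.1 against 7.32 and 8.62 FPKM, log2 change 0.71, adjusted p = 0.0028), the myosin light chain MYL9 (0.45) and SRF itself (0.31). MYL12B, another myosin light chain, fell (-0.28). The element that SRF binds, the CArG box, was searched by its consensus on both strands: it was in 22.5% of 40 windows of this list (21 of 25 genes had windows, 84.0%) and in 1.29% of all windows. EGR1, a gene of the immediate early list with that element, is shown with the boxes in capitals.
EGR1: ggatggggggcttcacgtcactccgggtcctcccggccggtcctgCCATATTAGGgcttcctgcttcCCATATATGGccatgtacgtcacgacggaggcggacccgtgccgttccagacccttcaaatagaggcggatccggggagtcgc
The stretch is chr5:138465329-138465478 (GRCh38.p14, plus strand), with boxes at -105 to -96 and -83 to -74 from the RefSeq start.

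ARHGEF11, a guanine nucleotide exchange factor for small GTPases, stood at 5.21 and 6 against 12.8 and 11.5 FPKM (log2 change -0.99, SE 0.09, adjusted p = 0.000141). Among targets of YAP and TEAD, which read cell shape and tension, 0 of 17 rose (3 unadjusted) and 7 fell (3 held). CTGF stood at 3.64 and 3.64 against 8.93 and 7.95 FPKM (log2 change -1.02, SE 0.09, adjusted p = 0.000147), with AMOTL2 at -0.59 and CYR61 at -0.34. Among adhesion genes 4 of 21 rose and 7 fell (3 and 1 held): the matrix protein TNC (4.24 and 5.12 against 2.16 and 2.3 FPKM, log2 change 0.81) and the hyaluronan receptor CD44 (0.32) rose, and the heparan sulfate proteoglycan SDC1 (-0.46) fell. Of the keratin and junction genes 0 of 22 rose (0 unadjusted) and 8 fell (4 held), the decreases including the desmosomal cadherin DSC2 (-0.69), the tight junction scaffold TJP1 (-0.47) and the claudin CLDN4 (-0.44). SNAI2, a repressor of epithelial genes, stood at 5.72 and 5.25 against 2.41 and 2.81 FPKM (log2 change 0.85, adjusted p = 0.000307).

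Among Wnt target genes, a pathway active in HCT116 through a mutation of beta-catenin, 1 of 15 rose and 7 fell (1 and 4 held), with a median of -0.30. SOX4 stood at 17.8 and 19.4 against 28.6 and 28.2 FPKM (log2 change -0.58, adjusted p = 0.000185), the Wnt inhibitor DKK1 at 364 and 369 against 536 and 549.8 (log2 change -0.57, adjusted p = 0.000153), and SOX9 at -0.50. CD44 was the member that rose. Among growth factor receptors and ligands the EGF receptor ligand HBEGF rose (5.48 and 5.64 against 3.84 and 3.53 FPKM, log2 change 0.49) and the insulin receptor INSR fell (-0.64), as members of a list in which 2 of 18 rose and 2 fell (1 and 1 held). Of the drug efflux pumps ABCC2 fell (-0.72), 1 of 7 tested.

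**Figure D4:**
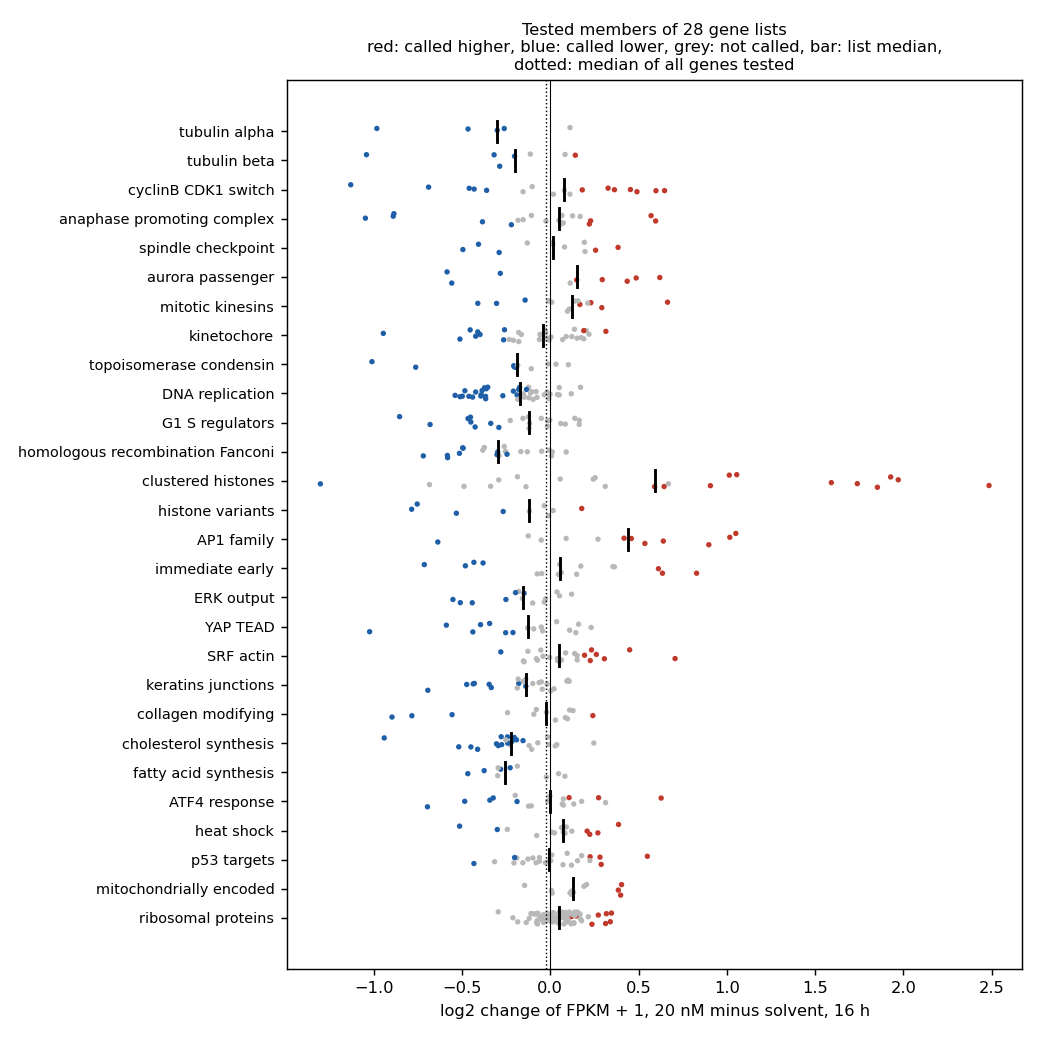
Each dot is the log2 change of FPKM + 1 of a tested gene between 20 nM and solvent at 16 h, in 28 gene lists, red where called higher, blue where called lower and grey where not called, with a bar at the list's median and a dotted line at the median of all genes, -0.02. DNA replication and cholesterol synthesis hold blue dots and no red ones, 11 of 23 clustered histones and 7 of 12 AP-1 genes are red, and the cyclin B, anaphase-promoting complex, checkpoint and Aurora lists hold both colours.

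In cholesterol synthesis 0 of 24 rose (0 unadjusted) and 14 fell (6 held), with a median of -0.22. The sterol carrier STARD4 stood at 8.34 and 8.81 against 17.2 and 17.5 FPKM (log2 change -0.94), and the sterol sensor INSIG1 (-0.52) and squalene synthase FDFT1 (-0.45) fell with it. In fatty acid synthesis 0 of 10 rose (0 unadjusted) and 4 fell (2 held), with malic enzyme ME1 (19.5 and 18.8 against 25.3 and 24.9 FPKM, log2 change -0.37) and the desaturase SCD (-0.28) lower. CRTAP, P4HA2 and PLOD2 serve the hydroxylation of prolines and lysines in collagen. CRTAP stood at 32.5 and 31.6 against 61.9 and 59.1 FPKM (log2 change -0.90, adjusted p = 1.95e-05), P4HA2 at 17.4 and 20.3 against 35.9 and 30.4 (log2 change -0.78) and PLOD2 at -0.56. Of the genes that modify collagen, 1 of 13 rose and 3 fell (0 and 3 held). Of the glycolysis genes 1 of 21 rose and 5 fell (1 and 1 held), hexokinase HK2 (0.25) being higher and pyruvate kinase PKM (-0.21) lower. SLC29A1, a nucleoside transporter, stood at 46.8 and 45.3 against 97.6 and 96.8 FPKM (log2 change -1.06, SE 0.04, adjusted p = 6.57e-06), within a family of 174 solute carriers of which 10 rose and 34 fell (3 and 15 held). The mitochondrial pyrimidine carrier SLC25A33 (0.38) and the amino acid transporter SLC7A5 (0.27) were among the increases that held.

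In the ATF4 response to amino acid and ER stress 3 of 19 rose and 5 fell (2 and 3 held): the factor DDIT3 (15.9 and 17.3 against 10.2 and 10.5 FPKM, log2 change 0.63, adjusted p = 0.00154) and SLC7A5 rose, while the serine enzyme PSAT1 (43.1 and 42.98 against 73 and 67.7 FPKM, log2 change -0.70, adjusted p = 2.57e-05), the folate enzyme MTHFD2 (-0.48) and asparagine synthetase ASNS (-0.34) fell. In the unfolded protein response of the ER 3 of 20 rose (0 held) and 0 fell (1 unadjusted). Among heat shock genes 4 of 15 rose and 2 fell (2 and 2 held), with the co-chaperone BAG3 (0.39) and the master factor HSF1 (0.21) higher and the co-chaperone DNAJB1 (-0.30) and HSPA1B (-0.51, near-identical to HSPA1A) lower. Among NRF2 targets, of oxidative stress, 2 of 18 rose and 6 fell (1 and 2 held), with a median of -0.09. In this list 13 of 18 changes were below 0, beside 7418 of the 13458 genes tested. The sulfiredoxin SRXN1 (0.46) was the increase that held. Of the p53 targets 4 of 25 rose and 2 fell (1 and 1 held), the nuclease AEN at 48.3 and 48.2 against 32.4 and 32.9 FPKM (log2 change 0.55) and BTG2 at -0.43 being those that held. In the BCL2 family 2 of 13 rose and 2 fell, and 0 held in either direction. Of the interferon-stimulated genes 2 of 21 rose and 3 fell (2 and 2 held): the effectors IFIT2 (1.17 and 1.18 against 0.33 and 0.25 FPKM, log2 change 0.75, adjusted p = 0.00175) and IFIT1 (4.38 and 3.89 against 2.54 and 2.37, log2 change 0.57) rose and the signal transducer STAT2 (7.29 and 6.8 against 11.2 and 11.5 FPKM, log2 change -0.62) fell. Of 9 tested NF-kB targets 2 rose and 1 fell (1 and 1 held), among them the feedback inhibitor TNFAIP3, higher (0.59), and the inhibitor NFKBIA, lower (-0.41).

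Large gene families were counted in the same way. Of the ribosomal protein genes 8 of 81 rose (2 held) and 0 fell (0 unadjusted), with RPLP2 (log2 change 0.24) among those that held. Of the mitochondrial ribosomal protein genes 11 of 78 rose (1 held) and 0 fell (2 unadjusted). Their medians were 0.05 and 0.07. MT-CYB, a mitochondrially encoded subunit of complex III, had the largest gain in FPKM among genes that held, 5589 and 5695 against 4141 and 4391 (log2 change 0.40, adjusted p = 0.00581), in a list where 3 of 13 rose (1 held) and 0 fell (0 unadjusted). Of 36 proteasome subunits 2 rose and 1 fell, and of 323 zinc finger genes 23 rose and 31 fell (5 and 4 held). Among Rab GTPases, which direct vesicle traffic, 4 of 48 rose and 10 fell (1 and 7 held), with RAB2B (-0.89), RAB11B (-0.69) and RAB5B (-0.67) lower and RAB12 (0.28) higher. Of the nucleoporins 3 of 20 rose and 6 fell (0 and 3 held), with NUP153 (-0.56), NUP155 (-0.36) and NUP210 (-0.35) lower. Of the DEAD and DExH box helicases 10 of 47 rose and 7 fell (1 and 3 held), with DDX10 (0.33) higher and DDX11 (-0.60), DDX17 (-0.46) and DHX40 (-0.35) lower.

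Further genes with large changes belonged to none of these groups. VGF, a secreted neuropeptide precursor, stood at 7.5 and 8.13 against 3.54 and 3.52 FPKM (log2 change 0.96, adjusted p = 9.58e-05), the purinergic receptor P2RY11 at 21.01 and 19.8 against 11.6 and 11.2 (log2 change 0.79, adjusted p = 5.41e-05) and the ribosomal RNA processing factor RRP15 at 28.2 and 31.1 against 14.3 and 19.6 (log2 change 0.78, adjusted p = 0.00441). Among decreases, the atypical MAP kinase MAPK15 stood at 3.97 and 2.21 against 8.7 and 10.8 FPKM (log2 change -1.42, adjusted p = 0.00196) and the RNA-binding protein RBM23 at 28.99 and 26.4 against 61.3 and 58.3 (log2 change -1.08, adjusted p = 0.000191). CALM2, 1 of several genes for calmodulin, stood at 242 and 239 against 481 and 498 FPKM (log2 change -1.02, SE 0.04, adjusted p = 5.57e-06). MYADM (-1.001) and the adhesion receptor ADGRG6 (-0.98) fell as well. TOMM7, a subunit of the import pore of mitochondria, stood at 97.1 and 124 against 244 and 192 FPKM (log2 change -0.97, SE 0.15). Its change against solvent at 100 nM and 16 h did not pass (-0.23, adjusted p = 0.326). PTMA, which encodes the acidic nuclear protein prothymosin alpha and has many near-identical processed copies, had the third largest drop in FPKM among genes that held, 2268 and 2143 against 2744 and 2723 (log2 change -0.31, adjusted p = 0.0017).

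Of 1133 long noncoding genes 8.30% were called and of 569 pseudogenes 8.08%, beside 19.2% of 11660 protein-coding genes. In a list of SMG1, a kinase of nonsense-mediated decay, SLC7A5 and genes named as copies of either, 7 of 11 rose (5 held) and 0 fell (0 unadjusted), with a median of 0.57. SLC7A5P2 stood at 12.2 and 12.1 against 3.15 and 2.48 FPKM (log2 change 1.79, adjusted p = 2.61e-05), SMG1P3 at 21.5 and 20.2 against 10.4 and 7.35 (log2 change 1.16, adjusted p = 0.00562) and SLC7A5P1 at 8.44 and 8.49 against 3.42 and 3.37 (log2 change 1.11). They can share reads with their parents and with each other, so these increases are not independent. SLC7A5P2 (chromosome 16, 21519830 to 21520365) lies within the span of SMG1P3 (21446683 to 21520444). SLC7A5 itself stood at 218 and 218 against 182 and 178 FPKM. The antisense gene AC097662.1 stood at 4.63 and 4.3 against 0.46 and 0.66 FPKM (log2 change 1.81, adjusted p = 0.000117) and THUMPD3-AS1 at 9.88 and 12.1 against 6.08 and 4.32 (log2 change 0.96). SNHG12, a host gene of small nucleolar RNAs, stood at 20.7 and 25.2 against 49.4 and 51.1 FPKM (log2 change -1.10, adjusted p = 0.000606), and RF00024, annotated as a miscellaneous RNA, at 5.74 and 6.72 against 18.8 and 20.1 (log2 change -1.50). The mean of RF00024 in solvent was 19.45 FPKM at 16 h and 4.0 at 24 h, so its level also differed widely between solvent groups. Antisense genes are uncertain, since whether counting used strand is not given here.

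The 20 nM group was then set against 100 nM at the same time, without the solvent libraries, to ask where the doses differ. Of 13458 genes 43 were called (0.32%), 6 higher at 100 nM (0.0446%) and 37 lower (0.275%), and without 1 library 15 to 18 were called. HES1, a Notch target and repressor, was lower at 100 nM (log2 difference -0.68, SE 0.04, adjusted p = 0.000485), its change against solvent being -0.19 at 20 nM and -0.87 at 100 nM. Calls for CCNE2, cyclin E2 (-0.86, adjusted p = 0.0137), AC097662.1 (-1.300), HIST2H2AA4 (-0.70, adjusted p = 0.0342), LINC00476 (-0.83), CD44 (0.35, adjusted p = 0.0342), ASB8 (0.38) and ANXA3 (0.26) each ended in at least 3 of the 4 fits without a library. For TUBB the changes against the shared solvent libraries were -1.04 at 20 nM and -1.15 at 100 nM, and the difference did not pass (-0.11, SE 0.04, adjusted p = 0.293). For CDK1 they were -1.13 and -1.31 (difference -0.18, SE 0.05, adjusted p = 0.227), and for CCNB1 0.60 and 0.78 (difference 0.18, SE 0.04, adjusted p = 0.126). FBXO5 was lower at 100 nM by a called difference (-0.59, SE 0.05, adjusted p = 0.00383). Clustered histone genes could pass the filter on low values through any group in which they were high, so their medians are partly set by selection. Against solvent the 23 clustered histone genes tested had a median change of 0.59 at 20 nM and 0.02 at 100 nM. Their median difference between doses was -0.47, with 0 called higher at 100 nM and 1 called lower. HIST1H2BC had 2.48 at 20 nM and 1.71 at 100 nM, and the difference did not pass (-0.77, SE 0.14, adjusted p = 0.0739).

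The last comparison asked whether the effect of 20 nM differed between 16 h and 24 h, each against its own solvent. Of 13458 genes 1550 differed (11.5%), 950 with a higher effect at 24 h (7.06%) and 600 with a lower one (4.46%). Rescaling each library to a common FPKM sum gave 346 and 2116 instead and moved the median difference of all genes from 0.03 to -0.14, so directions of small differences depend on the scaling. CCNB1 had an effect of 0.60 at 16 h and -0.18 at 24 h (difference -0.78, SE 0.06, adjusted p = 0.000353), CDC20 of 0.60 and -0.09 (difference -0.69, adjusted p = 0.00293) and UBE2S of 0.57 and -0.11 (difference -0.68, adjusted p = 0.000755). CDK1 had -1.13 and -0.32 (difference 0.81, SE 0.08, adjusted p = 0.000998), FBXO5 -1.05 and 0.14 (difference 1.19, adjusted p = 0.000116) and TUBB -1.04 and -0.45 (difference 0.59, adjusted p = 0.0009). For these 6 genes the effect at 24 h was smaller in size than at 16 h. Clustered histone genes could pass the filter on low values through the 24 h libraries in which they were high, so their count and median are partly set by selection. Of the 23 clustered histone genes tested, 11 had a called higher effect at 24 h, beside 7.06% of all genes, and the median difference was 0.97. Among them were HIST1H1C, with 1.01 at 16 h and 2.55 at 24 h (difference 1.54, SE 0.24, adjusted p = 0.00583) and HIST2H2AA4, with 1.93 and 3.37 (difference 1.45, adjusted p = 0.00106). HIST1H2BC, the protein-coding gene with the largest increase at 16 h among those that held, had 2.48 and 3.08, and its difference did not pass (0.60, SE 0.20, adjusted p = 0.0875). For JUN (0.90 and 0.97, adjusted p = 0.601) and EGR1 (0.83 and 1.12, adjusted p = 0.133) the difference did not pass. All 8 named genes of this paragraph whose difference was called kept the call in each of the 8 fits without a library.

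**Figure D5:**
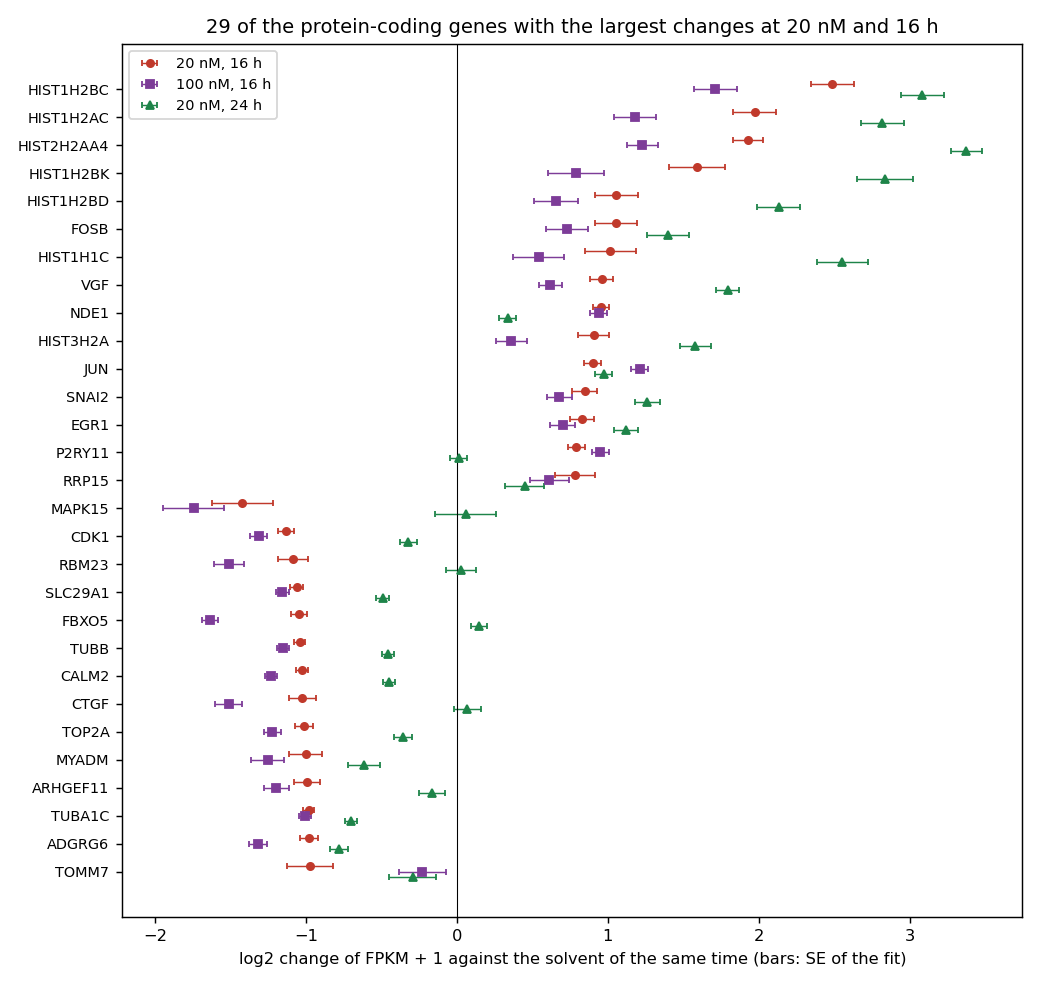
Log2 change of FPKM + 1 against the solvent of the same time, with bars for the SE of the fit, for 29 of the protein-coding genes with the largest changes at 20 nM and 16 h, shown for 20 nM at 16 h, 100 nM at 16 h and 20 nM at 24 h. The first set was chosen for its size and shares solvent libraries with the second, and HIST1H1C and HIST2H2AA4 lie further right at 24 h while CDK1, FBXO5 and TUBB lie nearer to 0.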

How the data were processed

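The authors deposited 1 table of FPKM per gene and library, with 58174 genes. The submitters' processing notes name RSEM 1.2.28 and GRCh38. Aligner, annotation and strand setting: not given in the sources used here. RSEM divides reads among near-identical copies, so their values are uncertain, and poly(A) selection, per the labels' protocols, captures RNA without a tail poorly. Read depth is unknown, so precision rests on the spread between libraries. Columns carry library numbers, not the sample numbers of the labels.

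Genes with at least 1 FPKM in at least 2 of 12 libraries were tested on log2(FPKM + 1) with limma 3.58.1 in R 4.3.3. All 12 libraries were fitted as 6 group means with a mean-dependent prior (6 residual and 2.98 prior degrees of freedom), tests were two-sided, and Benjamini-Hochberg adjustment ran over 13458 genes with a threshold of 0.05. GENCODE 29 gave symbols and positions, and promoter windows are from RefSeq. The fit was tried on simulated data with independent values, few changed genes and no shift of scale between libraries. That trial does not cover correlated duplicates or shifts of scale that these data may hold. The comparison, the gene lists and the tests were chosen with earlier results of these data known, so no list here is independent evidence. Named genes were the 15 largest increases and 15 largest decreases among protein-coding genes that held at 5 FPKM or more, the 5 and 5 largest by FPKM, the 5 and 5 largest of other gene types at 2 FPKM or more, up to 3 and 3 that held in each list, and the 5 and 5 largest differences between doses and between times among called genes; CDX2, other markers and list members that did not pass are given by value. Some genes that this rule takes are not reported here. Alternatives were pseudocounts of 0.1 and 0.5, no filter, a minimum of 5 FPKM, rescaling to a common FPKM sum, median-of-ratios scaling, a constant prior, libraries of 16 h alone, protein-coding genes alone, and leaving out each library.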

Additional observations from a re-analysis of the deposited data

Results flagged for a closer look

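The effect of 20 nM against solvent differed between 24 h and 16 h in 1550 of 13458 genes by the test of that difference itself (limma, adjusted p under 0.05). Among the genes with the largest changes at 16 h or the largest differences, 37 are given here. Values in parentheses are the log2 effect at 24 h minus that at 16 h.

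Of the genes called higher at 16 h, 6 histone genes had larger effects at 24 h: HIST1H2AC (0.85), HIST2H2AA4 (1.45), HIST1H2BK (1.24), HIST1H2BD (1.07), HIST1H1C (1.54) and HIST3H2A (0.67). HIST1H2BC, with the largest increase at 16 h among protein-coding genes that held, did not pass (0.60, adjusted p = 0.0875). VGF, the secreted neuropeptide precursor, had a larger effect too (0.83). The others had smaller or opposite effects at 24 h: NDE1 (-0.62), P2RY11 (-0.78), UBE2S (-0.68), CDC20 (-0.69), CCNB1 (-0.78), AC097662.1 (-1.84), SLC7A5P2 (-0.72), CCNB3 (-3.64), SMARCA5-AS1 (-2.99), SUN2 (-1.18) and ZNF286B (-0.995). CCNB3, a cyclin B, had effects of 1.69 at 16 h and -1.95 at 24 h, and SUN2, of the nuclear envelope, 0.26 and -0.93.

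Of the genes called lower at 16 h, those given here had higher values of the effect at 24 h: MAPK15 (1.48), CDK1 (0.81), RBM23 (1.11), SLC29A1 (0.57), FBXO5 (1.19), TUBB (0.59), CALM2 (0.57), CTGF (1.09), TOP2A (0.65), ARHGEF11 (0.83), TUBA1C (0.28), TUBA1B (0.24), AC015674.1 (1.35), AC006128.1 (0.93), SNHG12 (1.07), ASB8 (0.29), CCNE2 (0.52), PTBP2 (1.92) and RPS3AP26 (1.49). PTBP2, a splicing regulator, had effects of -1.04 at 16 h and 0.88 at 24 h.

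Of these 37 genes, 25 kept the call in all 8 fits without a library. The call ended in at least 1 such fit for HIST1H2AC, HIST1H2BK, HIST1H2BD, HIST3H2A, MAPK15, TUBA1C, TUBA1B, SLC7A5P2, AC015674.1, ASB8, CCNE2 and SMARCA5-AS1. With libraries rescaled to a common FPKM sum 32 were called, and TUBA1C, TUBA1B, ASB8, CCNE2 and HIST1H2AC were not (0.09, 0.05, 0.11, 0.34 and 0.68). The genes of the 16 h comparison were chosen for their change at 16 h, which enters the difference.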

How the results depend on the processing

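For 20 nM against solvent at 16 h, other pseudocounts, filters, scalings and priors, the 16 h libraries alone and protein-coding genes alone kept the count of 2388 within 1.5 times (1722 without a filter to 2463 under median-of-ratios scaling). Leaving out 1 library gave 1036 to 1240 calls, 332 to 403 higher and 651 to 870 lower, with fewer libraries fitted. Between doses the 43 calls (6 higher, 37 lower) became 28 under a constant prior (2 higher), 10 with the 16 h libraries alone (0 higher and 10 lower), 13 higher without a filter, and 2 higher and 57 lower with rescaling to a common sum. Leaving out 1 library gave 15 to 18 calls there, 0 to 4 higher and 13 to 16 lower. The difference between times had 1008 calls without a filter (609 higher, 399 lower) and 2462 with rescaling to a common sum (346 higher, 2116 lower), and 705 to 1753 without 1 library (426 to 974 higher, 268 to 779 lower). The cause of these shifts was not tested. For 20 nM against solvent at 16 h no named gene changed sign. Most were named by rules that required their direction to hold under 2 of these scalings and without each library, so this was largely fixed by selection. No paired analysis was possible because the columns carry library numbers and not the sample numbers of the labels. Depth is unknown, so no counting interval could be set.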

Other observations

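Among protein-coding genes, the share called higher at 20 nM and 16 h differed with level and length as a description across genes, which are not independent replicates. Split by mean level into 4 classes of equal size, 2.71% were called higher in the lowest class and 12.4% in the highest, while 7.79% and 11.3% were called lower. By longest annotated transcript, 9.57% were called higher in the shortest of 4 classes (207 to 2369 bases) and 3.77% in the longest (5363 to 34526 bases), while 9.88% and 13.1% were called lower. The medians of the shortest and longest classes were 0.01 and -0.06 (log2).

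Some of the largest fitted changes belonged to genes with a library at 0, which were left out of the named genes and are given without a fold. BCYRN1, a short RNA made from an Alu-derived gene, was at 82.7 and 436 FPKM with 20 nM and listed at 0 in both solvent libraries, and its treated duplicates differed widely. AC008764.4 was at 6.40 and 5.38 FPKM and listed at 0 in both solvent libraries, and AC005363.1, annotated as a pseudogene, was listed at 0 with 20 nM and at 8.29 and 4.66 in solvent.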
